A study of Homo sapiens with 8 samples.

Results

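The genes described are 31 nucleoporin genes, which encode proteins of the nuclear pore. They were chosen by name and found by their symbol in the count tables, where all 31 were present among 16796 genes. RNA sequencing was carried out on LX-2, an established line of human hepatic stellate cells that serves as a model of liver myofibroblasts, the cells that lay down scar matrix. Control cells received the vehicle DMSO. OGTi cells received OSMI-1, a small-molecule inhibitor of O-GlcNAc transferase (OGT), at 50 µM. Both groups were kept for 24 h in DMEM with 5% fetal bovine serum, and each had 4 libraries from biological replicates, in which the treated and the control culture of a replicate number form a pair. As all libraries come from a single line, they are no sample of donors, and a lower level in bulk RNA cannot be told apart from fewer expressing cells.

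The nuclear pore is a channel through the nuclear envelope. Its scaffold consists of an outer ring, built from the Y-shaped NUP107-NUP160 complex, and an inner ring around NUP93. The channel is filled with nucleoporins rich in phenylalanine-glycine (FG) repeats, which bind the importins and exportins that ferry cargo. FG-repeat nucleoporins are among the best known carriers of O-GlcNAc, the sugar that OGT attaches, and this modification sits on protein and is not visible in RNA. The members were therefore divided by class into 10 FG-repeat genes, 14 scaffold genes of the outer and inner rings, and 7 others. The study's list of O-GlcNAcylated transcriptional regulators in LX-2 cells holds the FG-repeat member NUP98 and also the scaffold member AHCTF1. The classes are thus no split by measured O-GlcNAc.

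The classes differed in FG codons, with some overlap. Counting in-frame codons for phenylalanine followed by glycine in the canonical GENCODE v44 transcript (hg38), the FG-repeat genes held a median of 23 such pairs, against 2.5 in the scaffold genes and 3 in the others. NUP214 held 44, NUP98 40, NUP153 29, POM121 and POM121C 24 each, RANBP2 22, NUP58 14, NUP54 9, NUP62 6 and NUP50 5. The scaffold genes held at most 4 and the others at most 5, the latter in NDC1 and NUP210, so NUP50 was not separated from them. Per 100 codons RANBP2 (0.682) lay below the scaffold gene NUP35 (0.920). Over 19755 canonical coding transcripts the median was 1, and 0.440% held at least 10. A stretch of 120 coding bases is shown for a protein of the central channel (NUP62), one that links channel and ring (NUP98), one of the cytoplasmic face (NUP214) and one of the nuclear basket (NUP153), with the FG codon pairs in capitals. The stretches begin at coding bases 16, 10, 5866 and 3865 and hold 3, 7, 6 and 5 pairs, respectively.

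NUP62: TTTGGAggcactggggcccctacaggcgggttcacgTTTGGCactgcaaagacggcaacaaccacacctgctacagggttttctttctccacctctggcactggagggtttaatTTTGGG
NUP98: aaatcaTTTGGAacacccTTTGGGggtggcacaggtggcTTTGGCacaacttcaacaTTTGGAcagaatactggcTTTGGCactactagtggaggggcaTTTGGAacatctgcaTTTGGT
NUP214: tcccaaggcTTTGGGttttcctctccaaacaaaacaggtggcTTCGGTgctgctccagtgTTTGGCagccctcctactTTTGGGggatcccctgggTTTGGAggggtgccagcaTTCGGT
NUP153: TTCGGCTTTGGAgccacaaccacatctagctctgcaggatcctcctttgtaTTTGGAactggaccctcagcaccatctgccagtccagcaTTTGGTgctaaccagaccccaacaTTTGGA

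The 8 libraries held 24166756 to 28201215 counts, and the members took 0.403% to 0.478% of the counts in control and 0.433% to 0.501% in OGTi libraries. Cell type was checked with 9 stellate and myofibroblast markers, all of them present, which does not by itself identify the line. Their summed normalized count was 227094 to 268643 in control and 164212 to 186866 in OGTi libraries, and 8 were lower and 0 higher. Most of the control sum was VIM (mean 95086) and COL1A1 (mean 84778). The summed hepatocyte markers reached at most 74.0 and the summed endothelial markers at most 91.1. The summed cholangiocyte markers were at 681 to 1151 in control and 955 to 1273 in OGTi libraries, most of it SOX9, which rose (0.35 ± 0.11, DESeq2 q of 0.00715), while KRT7 fell by 1.05 ± 0.26 on the log2 scale and KRT19 was at 3.01 or below. Only 3 of 7 hepatocyte, 3 of 5 cholangiocyte, 4 of 6 endothelial and 4 of 7 leukocyte markers were listed. The sums cover these alone, and ALB, EPCAM and STAB2 were among the markers not listed. The leukocyte list summed to 2482 to 4089 in control and 5610 to 9391 in OGTi libraries, almost all of it CD68, a lysosomal gene, with at most 11.5 for PTPRC, the pan-leukocyte marker. The part of these markers in the values that follow was not tested.

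Nucleoporin transcripts differed little between OGTi and control cells, and most calls were lower. Of the 31 genes, DESeq2 called 12 lower and 3 higher in OGTi cells at a q (Benjamini-Hochberg adjusted p) of 0.05 or lower, and 16 were not called. These counts fell to 9, 8, 7 and 6 lower and to 0, 1, 2 and 0 higher without replicate 1, 2, 3 and 4, respectively. Without the replicate block DESeq2 called 9 lower and 0 higher. The share called, 48.4%, was close to that of all genes with a q, of which 46.6% were called, 22.7% higher and 24% lower. Among the 9264 genes at least as abundant as the least abundant member by mean count, 55% were called, 26% higher and 29% lower. The median log2 fold change of OGTi over control was -0.13 over the members and 0.00 over all genes, and 23 members had a negative and 8 a positive value. Called members changed by a median of 0.248 in absolute log2 fold change, against 0.516 for all called genes. AAAS alone reached an absolute value of 0.5 (24.2% of all genes were called and reached it), and 0 members were called with a 2-fold change (8.55% of all genes). For 26 of the 31 members the whole 95% interval lay within 0.5 on either side of zero.

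**Figure D1:**
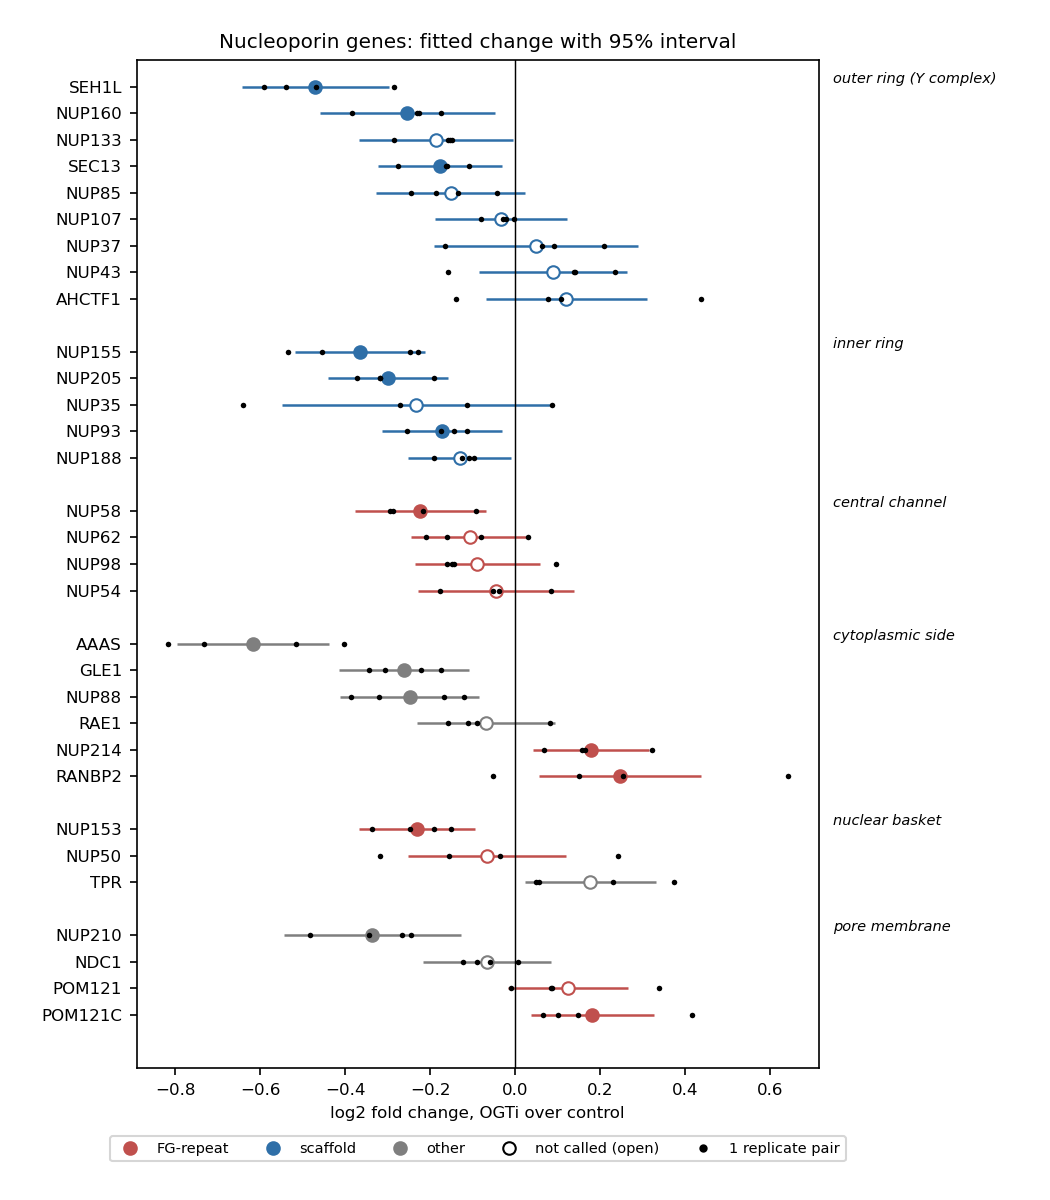
The log2 fold change of OGTi over control (horizontal axis) of each nucleoporin gene, grouped by place in the pore; large circles are the fitted value with its 95% interval, filled where DESeq2 called the gene, and small dots are the 4 replicate pairs. Of the 15 filled circles 12 lie left of zero, with AAAS farthest at -0.62, and the 3 on the right are the FG-repeat genes NUP214, RANBP2 and POM121C.

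The outer ring genes ranged from -0.47 to 0.12, with 3 of 9 called, all lower. SEH1L (hg38 chr18:12947133-12987536) encodes a beta-propeller subunit of the Y complex that also serves in the GATOR complex of amino acid sensing. Its normalized count was 1517, 1797, 1901 and 1688 in control replicates 1 to 4 and 1245, 1193, 1308 and 1220.1 in OGTi replicates 1 to 4. Every OGTi library lay below every control library, and the log2 fold change was -0.47 ± 0.09 (SE, DESeq2 q of 6.58e-07). The Y complex gene NUP160 (chr11:47778087-47848555) fell from 738 ± 11.2 to 620 ± 43.6 (SD over 4 libraries), again without overlap, and changed by -0.25 ± 0.11 on the log2 scale (DESeq2 q of 0.0354). Its call was lost with any 1 replicate left out (q of 0.0893 to 0.216). SEC13, a beta-propeller subunit shared with the COPII coat of secretory vesicles, fell by 0.18 ± 0.07 on the log2 scale (DESeq2 q of 0.0404), with overlapping groups. It too was not called with any 1 replicate left out (q of 0.0721 to 0.249), nor without the replicate block (DESeq2 q of 0.0506). The other members of this ring were not called. Among them NUP133 did not overlap between the groups, at 965 to 1157 in control and 871 to 964 in OGTi cells (-0.19 ± 0.09, DESeq2 q of 0.0858). NUP85 and NUP107 had values of -0.15 and -0.03, and NUP43, NUP37 and AHCTF1, the chromatin-binding subunit ELYS, had 0.09, 0.05 and 0.12.

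In the inner ring all 5 genes had a negative log2 fold change, with a median of -0.23, and 3 were called lower. NUP155 (chr5:37288137-37371106), which connects the inner ring to the membrane, had 4217, 4448, 5099 and 4998 normalized counts in control replicates 1 to 4 and 3602, 3071, 3722 and 4209 in OGTi replicates. The groups did not overlap, although OGTi replicate 4 lay just below control replicate 1. The change was -0.37 ± 0.08 (DESeq2 q of 1.53e-05). NUP205 (chr7:135557917-135648757), a large solenoid protein bound to NUP93, had 3478, 3355, 4109 and 3721 in control and 3047, 2689, 3175 and 2987 in OGTi cells. These groups did not overlap either, and the change was -0.30 ± 0.07 (DESeq2 q of 0.000144). NUP93, the organizer of the ring, fell from 3203 ± 102 to 2845 ± 115 (DESeq2 q of 0.0395), a call lost with any 1 replicate left out (q of 0.0707 to 0.232). NUP188, the paralog of NUP205, was lower in 4 of 4 pairs but not called (-0.13, 95% interval -0.25 to -0.01, DESeq2 q of 0.0711). NUP35, the member with the lowest normalized count (306 ± 35.4 in control), had the widest interval of the scaffold genes, -0.55 to 0.08.

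**Figure D2:**
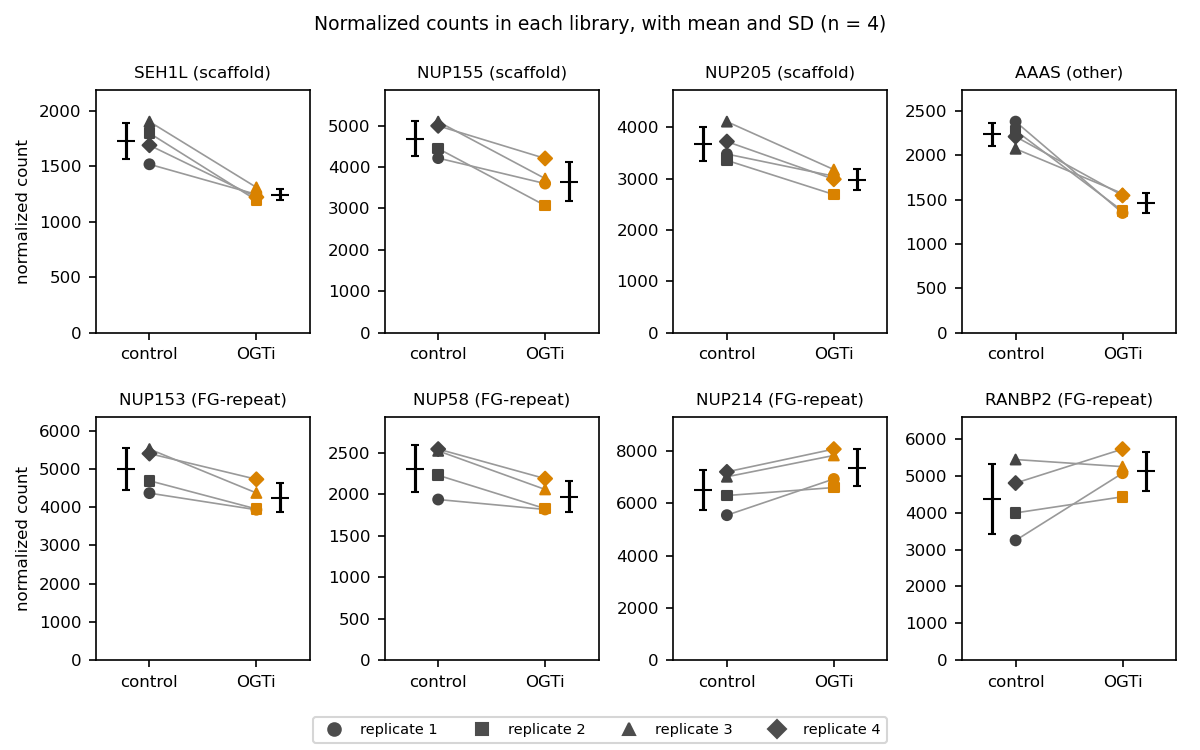
Normalized counts (vertical axis, from 0) of 8 nucleoporin genes in each control and OGTi library; lines join the libraries of a replicate number, and crosses with bars give the mean and SD of 4 libraries. SEH1L, NUP155, NUP205 and AAAS do not overlap between the groups, while NUP153, NUP58, NUP214 and RANBP2 do.

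In the central channel 1 of 4 FG-repeat genes was called. NUP58, which forms the channel complex with NUP54 and NUP62, had 1936, 2228, 2522 and 2544 normalized counts in control replicates 1 to 4 and 1816, 1826, 2057 and 2188 in OGTi replicates. Each OGTi library was below the control library of its pair, with overlap between the groups, and the change was -0.22 ± 0.08 (DESeq2 q of 0.0125). Without the replicate block the q was 0.0774, and without replicate 2, 3 or 4 it was 0.111, 0.0929 or 0.0772. NUP62, the classical O-GlcNAc carrying nucleoporin, was at 5821 ± 278 in control and 5408 ± 151 in OGTi cells, a change of -0.11 that was not called (95% interval -0.24 to 0.03, DESeq2 q of 0.225). Intervals of the same kind were -0.23 to 0.14 for NUP54 and -0.24 to 0.06 for NUP98, whose transcript also encodes the scaffold protein NUP96.

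The cytoplasmic side held the largest fall and 2 of the 3 rises. AAAS (chr12:53307456-53324864), which encodes ALADIN, the WD-repeat protein mutated in triple A syndrome, had 2378, 2277, 2072 and 2209 normalized counts in control replicates 1 to 4. In OGTi replicates it had 1348, 1371, 1567 and 1546. Every OGTi library lay below every control library, and the change was -0.62 ± 0.09, a loss of 34.8% (DESeq2 q of 1.66e-10). GLE1, the activator of the mRNA export helicase DDX19, fell from 2213 ± 123 to 1846 ± 113 (-0.26 ± 0.08, DESeq2 q of 0.00275). NUP88, the partner of NUP214, fell from 2086 ± 158 to 1753 ± 69.2 (-0.25 ± 0.08, DESeq2 q of 0.00812). Both were without overlap between the groups, and NUP88 lost its call when replicate 3 (q of 0.0685) or 4 (q of 0.120) was left out. RAE1, an mRNA export factor that binds NUP98, had a value of -0.07 (95% interval -0.23 to 0.09).

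The FG-repeat gene NUP214 (chr9:131125573-131234663) anchors the export platform to which NUP88 belongs. It had 5548, 6301, 7019 and 7208 normalized counts in control and 6934, 6606, 7836 and 8079.8 in OGTi replicates. The ranges overlapped, and within pairs the OGTi library was higher in 4 of 4 (0.18 ± 0.07, DESeq2 q of 0.0254). RANBP2 (chr2:108719482-108785810), the giant NUP358 of the cytoplasmic filaments and a SUMO ligase, had 3249, 3995, 5445 and 4806 in control and 5075, 4433, 5252 and 5729 in OGTi replicates. It was higher in 3 of 4 pairs (0.25 ± 0.10, DESeq2 q of 0.0258), and control replicate 1 was the lowest of the 8 libraries. Without the replicate block DESeq2 gave a q of 0.161 for NUP214 and 0.184 for RANBP2, and without replicate 1 the changes were 0.13 (q of 0.139) and 0.12 (q of 0.274), so neither was called then. NUP214 was also not called without replicate 3 (q of 0.0909) or 4 (q of 0.106), nor RANBP2 without replicate 2 (q of 0.0533) or 4 (q of 0.104). Control replicate 1 was the lowest control library for 23 of the 31 members, and for 30.1% of all genes with a q.

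At the nuclear basket, NUP153, an FG-repeat protein that docks importins, had 4370.3, 4695, 5524 and 5406 normalized counts in control and 3935, 3956, 4375 and 4733 in OGTi replicates. It was lower in 4 of 4 pairs with overlapping groups (-0.23 ± 0.07, DESeq2 q of 0.00283). TPR, the coiled-coil backbone of the basket, was higher in 4 of 4 pairs and stood just outside the threshold (0.18 ± 0.08, DESeq2 q of 0.0521). NUP50, an importin cofactor, had an interval of -0.25 to 0.12.

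Of the pore membrane genes, NUP210, which encodes the glycoprotein gp210, fell from 768 ± 173 to 604 ± 115 (-0.34 ± 0.11, DESeq2 q of 0.0046), lower in 4 of 4 pairs. Without the replicate block its q was 0.108, and without replicate 4 it was 0.0895. NDC1, a membrane anchor, had a value of -0.07 (interval -0.22 to 0.08). POM121C, an FG-repeat membrane nucleoporin, had 11830.0, 13203, 16695 and 17356 normalized counts in control and 15793, 14623, 17466 and 18608 in OGTi replicates. The ranges overlapped, the OGTi library was higher in 4 of 4 pairs, and the change was 0.18 ± 0.07 (DESeq2 q of 0.0321). Without the replicate block its q was 0.282, and without replicate 1 its change was 0.11 (q of 0.214), with a q of 0.0968 without replicate 2 and 0.0671 without replicate 4. Its near copy POM121 was higher in 3 of 4 pairs and not called (0.12 ± 0.07, DESeq2 q of 0.150).

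Some of these genes share sequence with copies, between which RSEM must divide reads. Of the 100-base windows of the transcript, 38.9% in POM121, 41.3% in POM121C, 31.5% in AHCTF1, 15.0% in NUP62 and 14.6% in RANBP2 occur in another gene. When POM121 and POM121C were summed, the change was 0.15 ± 0.07 and was not called (DESeq2 q of 0.0763). When RANBP2 was summed with the 7 RGPD genes, which arose from copies of it, the change was 0.16 ± 0.09 and was not called (DESeq2 q of 0.146). RANBP2 made up 71.3% of that sum in control and 75.6% in OGTi cells, and 0 of the 7 RGPD genes were called. Among these, RGPD1, RGPD2, RGPD3 and RGPD4 were near the floor, at mean control counts of 15.9, 3.25, 8.44 and 12.8. Their lack of a call therefore says little. The rises of POM121C and RANBP2 are thus uncertain at the level of the single gene.

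By class, DESeq2 called 3 FG-repeat genes higher and 2 lower of 10, with a median log2 fold change of -0.06. Of the 14 scaffold genes, 0 were higher and 6 lower, with a median of -0.17, and of the 7 others 0 were higher and 4 lower, with a median of -0.25. The shares called were 50%, 42.9% and 57.1%, against 46.6% of all genes. The 3 higher calls were all lost without replicate 1, without replicate 4 or without the replicate block. The groups did not overlap, with OGTi below control, for 6 scaffold, 3 other and 0 FG-repeat genes, 9 of 31 in all, where 20.2% of all genes showed this. In 0 members did every OGTi library lie above every control library, as in 19.8% of all genes. The difference between the FG-repeat and scaffold medians was 0.12. As a check by library, the mean log2 normalized count of the FG-repeat genes exceeded that of the scaffold genes by 1.29, 1.37, 1.49 and 1.55 in control replicates 1 to 4 and by 1.59, 1.46, 1.60 and 1.67 in OGTi replicates. This gap was wider in the OGTi library of each pair, by 0.30, 0.09, 0.11 and 0.12, and the ranges of the groups overlapped. The median change of the scaffold genes was negative in every pair (-0.16, -0.12, -0.16 and -0.18), whereas that of the FG-repeat genes was 0.17 in pair 1 and -0.10, -0.05 and -0.09 in pairs 2 to 4. No test was made of the difference between the classes. Over the 31 members the log2 fold change and the number of FG codon pairs had a Spearman correlation of 0.42, and with transcript length it was 0.34. These are descriptions over genes that share the same libraries.

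**Figure D3:**
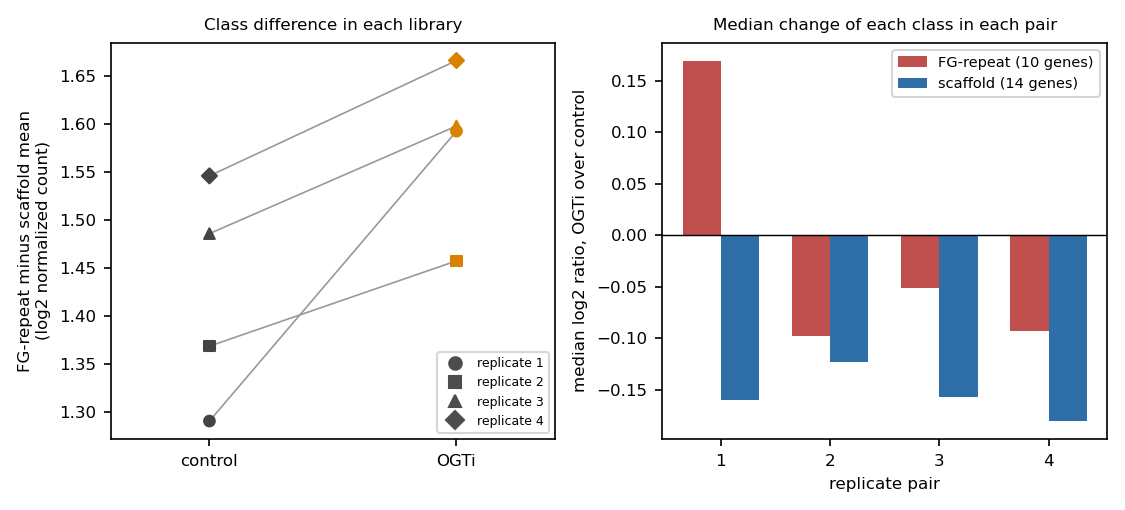
Left, the mean log2 normalized count of the FG-repeat genes minus that of the scaffold genes (vertical axis) in each library, with lines joining replicate pairs; right, the median log2 ratio of OGTi over control of each class in each pair. The gap is wider under OGTi in every pair, most in pair 1 (0.30), the one pair in which the FG-repeat median is positive.

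Levels were compared between genes as normalized counts per kilobase of canonical transcript. In control cells they ran from 107 for NUP210 to 3583 for POM121, with a median of 578. POM121, POM121C (2518), NUP188 (2336), SEC13 (2013) and NUP62 (1732) headed the order. The SDs of POM121 and POM121C overlapped, as did those of POM121C and NUP188. Those of neighbours also overlapped from SEH1L (932) to RAE1 (747) and from GLE1 (670) to NUP35 (198). Neighbours in these stretches were not separated. The levels of POM121 and POM121C also depend on how RSEM divided reads between them. At the low end stood NUP160 (141) and NUP210. AAAS went from 1231 to 803 and SEH1L from 932 to 671 under OGTi.

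**Figure D4:**
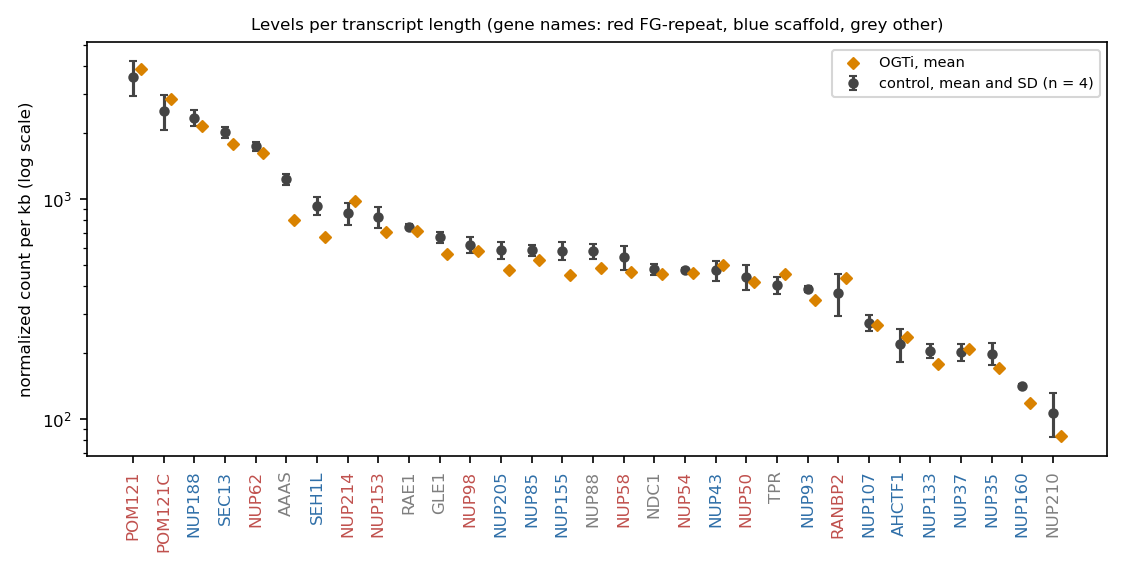
Normalized count per kilobase of transcript (vertical axis, log scale) of each nucleoporin gene, ordered by the control mean; grey circles with bars are the control mean and SD of 4 libraries and orange diamonds the OGTi mean. Levels run from 3583 for POM121 to 107 for NUP210, and AAAS shows the widest step between the groups.

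Promoters were examined for short motifs on both strands of a window around the RefSeq start, most of it upstream (GRCh38.p14), which 28 of the 31 genes had. A member was counted if any of its promoter entries held the motif. Genes tested were counted by 1 entry each, and the 35116 promoters by entry. The shares are thus not strictly alike where a gene has several entries. The ETS letters CCGGAAG occurred in 13 of the 28 (46.4%), against 10.3% of all 35116 promoters and 17.9% of the promoters of genes tested. The 13 comprised 6 FG-repeat genes, 6 scaffold genes and NUP88, with 2 genes called higher and 5 lower. The CHR letters TTTGAA occurred in 8 (28.6%, against 9.97% of the promoters of genes tested), the GC box GGGCGG in 14 (50%, against 68.1%), CCAAT in 10 (35.7%, against 36.3%) and the NRF1 motif in 4 (14.3%, against 10.7%). Over all 35116 promoters the shares were 15.2% for CHR, 45.0% for the GC box, 34.6% for CCAAT and 5.78% for NRF1. The GC box share of the members thus lay below one background and above the other. The motifs that follow are set against genes tested. The cAMP response element TGACGTCA was found in NUP133 and NUP214 (7.14%, against 3.03%), and the YY1 motif in 3 genes (10.7%, against 2.54%). Also sought were an E2F motif, in 1 gene (3.57%, against 1.05%), and an HCF1-ZNF143 motif, in 1 (3.57%, against 1.35%). A second form of the E2F motif was in 0 (against 2.54%). A match is a description of letters and no evidence of binding. Shown are the promoters of SEH1L, called lower (chr18:12947761-12948060, plus strand), and of NUP214, called higher (chr9:131125336-131125635, plus strand). They were picked because both hold the ETS letters, and the NUP214 call was kept in 6 of 11 settings. The SEH1L window is placed by a RefSeq start and lies inside the gene span given above. Capitals mark the ETS letters and GC boxes in SEH1L, and the NRF1, CCAAT, ETS and cAMP response letters, in this order, in NUP214.

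SEH1L: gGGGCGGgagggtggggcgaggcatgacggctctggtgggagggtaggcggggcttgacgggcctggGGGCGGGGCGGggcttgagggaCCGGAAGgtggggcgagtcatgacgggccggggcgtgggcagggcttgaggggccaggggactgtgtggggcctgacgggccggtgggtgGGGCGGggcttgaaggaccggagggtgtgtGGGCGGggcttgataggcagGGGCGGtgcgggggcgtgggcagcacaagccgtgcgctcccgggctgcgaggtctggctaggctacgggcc
NUP214: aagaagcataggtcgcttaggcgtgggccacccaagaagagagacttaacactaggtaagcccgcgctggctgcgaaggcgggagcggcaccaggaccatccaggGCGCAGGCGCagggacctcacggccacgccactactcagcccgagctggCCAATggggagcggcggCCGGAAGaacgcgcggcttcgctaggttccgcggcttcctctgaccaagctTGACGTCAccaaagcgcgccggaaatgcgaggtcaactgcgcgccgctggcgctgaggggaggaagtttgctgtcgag

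The lists that follow are to be read against the 22.7% of all genes called higher and the 24% called lower. Among genes at least as abundant as the least abundant member by mean count, these shares were 26% and 29%. Of 17 importin genes 9 were lower and 1 higher, with a median log2 fold change of -0.20. KPNA2, an importin alpha, fell from 12274 ± 607 to 6325 ± 378 (-0.96 ± 0.07, DESeq2 q of 1.35e-36). KPNB1, the importin beta that carries most classical cargo, fell by 0.65 ± 0.08 on the log2 scale and IPO5 by 0.64 ± 0.07. Of 7 exportins 4 were lower and 1 higher (median -0.25), among them XPO1, the main protein exporter (-0.39 ± 0.07, DESeq2 q of 3.86e-07), XPO7 (-0.41) and XPO4 (-0.37). The Ran cycle, which gives transport its direction, had 6 of 7 genes lower and 1 higher (median -0.38, or -0.31 with RANBP3L, which had no q). RCC1, the exchange factor of Ran, fell by 0.48, RANGAP1, which docks on RANBP2, by 0.46, and RAN itself by 0.38.

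Of 18 mRNA export genes with a q, 6 were lower and 2 higher (median -0.09). The lower calls were near those shares and the higher calls below them. The helicases DDX39A and DDX39B fell by 0.81 and 0.64, whereas the export receptor NXF1 rose from 3101 ± 145 to 4599 ± 316 (0.57 ± 0.07, DESeq2 q of 1.21e-14). Of 18 genes of the lamina and envelope, 8 were lower and 5 higher (median -0.09), with falls of 0.80 for LMNB2, 0.87 for LMNB1, both B-type lamins, and 0.66 for SUN2, which bridges lamina and cytoskeleton. The 5 rises ran from 0.22 to 0.60. Of 6 SUMO genes 4 were lower and 0 higher, with SUMO3 at -0.87 and SUMO2 at -0.40. OGT and OGA, which add and remove O-GlcNAc, changed by -0.45 and -1.80. Of 54 G2/M cell cycle genes 50 were lower and 1 higher (median -0.65). LBR, TMPO and RANGAP1 belong both to this list and to that of the envelope or the Ran cycle. Of 43 S phase genes 19 were lower and 6 higher (median -0.12). The part of the cell cycle in the nucleoporin values was not tested.

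**Figure D5:**
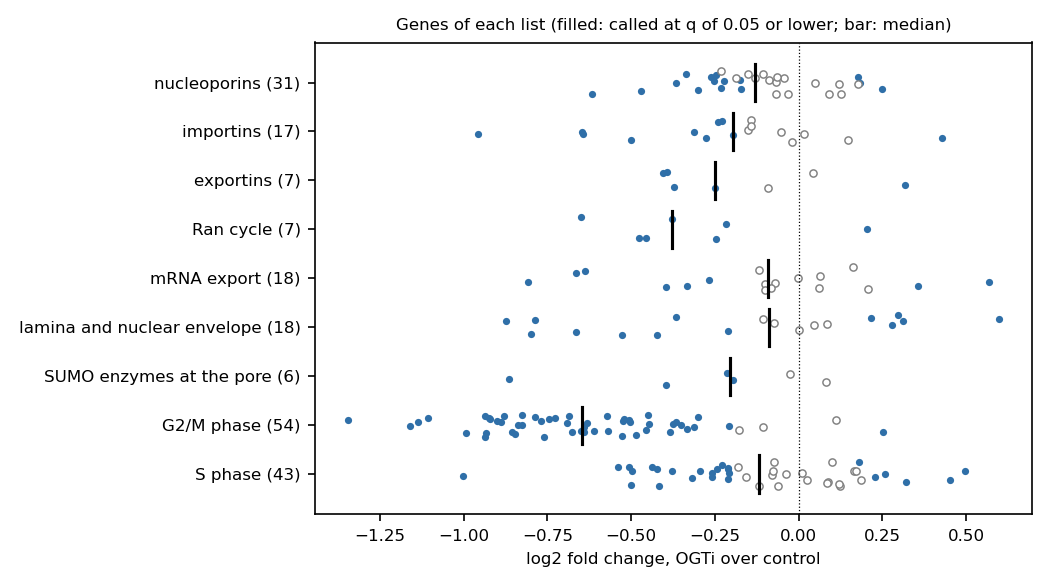
The log2 fold change of OGTi over control (horizontal axis) of each gene with a q in the nucleoporin group and in lists of transport, envelope and cell cycle genes; filled points were called, and bars are list medians. The nucleoporin median is -0.13, those of importins, exportins and the Ran cycle are -0.20, -0.25 and -0.38, and that of G2/M genes is -0.65.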

How the data were processed

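RNA libraries were made after oligo dT enrichment with a stranded protocol and sequenced from both ends. Per the submitters' processing notes and the study's methods, the authors aligned reads to hg38 with Bowtie2 2.3.5.1, counted them per gene with RSEM 1.3.1 and tested them with DESeq2 1.36.0. The deposited files hold RSEM expected counts per gene, in which a read with several alignments is divided between genes. The authors also deposited a table of their own comparison (log2 fold changes, p-values), which was not used.

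Expected counts were rounded, and genes with a total of at least 10 counts over 8 libraries (14895) were fitted with DESeq2 1.42.0 (Wald test, R 4.3.3). Median-of-ratios size factors were used, the replicate number was a block beside treatment, and p-values were adjusted by Benjamini-Hochberg over all genes (14028 with a q). A normalized count is a count over its library's size factor, with SD over 4 libraries. The script was tested on simulated data. Total counts were 24166756 to 28201215 per library, and all 31 members passed the filter.

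The study's methods pair the samples of a replicate. The deviations of same-numbered libraries from their group means correlated across 11702 genes at 0.378, 0.306, 0.138 and 0.269 for replicates 1 to 4, and control replicate 3 was closer to OGTi replicate 4 (0.274) and OGTi replicate 3 to control replicate 4 (0.201). Alternatives were edgeR 4.0.16 with and without the block, DESeq2 without the block or with TMM factors, 2 other count filters, limma 3.58.1 voom, each replicate left out, other class definitions and summed copies.

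The members and gene lists were chosen with earlier results of these data known. All members were described, with 3 called genes of the largest absolute Wald statistic for each transport, envelope or SUMO list, and values in every library for the FG-repeat and scaffold genes of largest Wald statistic. Per-library values of other members were chosen after they were seen. List counts and medians cover genes with a q. The values of 1 gene that this rule names are not reported here.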

Additional observations from a re-analysis of the deposited data

Results flagged for a closer look

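In 5 of 108 groups of 4 libraries, 1 library stood apart from the other three by Dixon's criterion, where chance gives 1 in 20 groups, or 5.4. NUP85 had 1155 normalized counts in OGTi replicate 2 against 1108 to 1113 in the others, and RAE1 had 1864 there against 1627 to 1663. RAN had 6559 in OGTi replicate 1 against 7576 to 7673. NUP210L, a paralog of NUP210, was at 0.974 in control replicate 1 and at 2.0 in OGTi replicate 4 and at 0 in the other libraries, values of a few reads at most.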

How the results depend on the processing

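Over 11 settings, 5 of the 15 nucleoporin calls were kept in each: AAAS, SEH1L, NUP155, NUP205 and GLE1, all lower. The 3 higher calls were kept in 6 of the 11 settings each. Without the replicate block, 0 members were called higher by DESeq2 and 0 by edgeR, and edgeR called 7 lower. Leaving out each replicate in turn gave 0 to 2 higher and 6 to 9 lower members, where fewer samples were fitted. NUP153 lost its call in edgeR without the block (q of 0.0590). TPR was called with TMM size factors (DESeq2 q of 0.0493) and by limma voom (q of 0.0438). The summed RANBP2 and RGPD genes gave 0.16 (DESeq2 q of 0.146). With a replicate left out, signs reversed, none of them called, for NUP37 (-0.0065 to 0.12, negative without replicate 3), NUP50 (-0.17 to 0.013, positive without replicate 3), RGPD5 (-0.16 to 0.13, positive without replicate 2 or 3) and NUPL2 (-0.014 to 0.032, negative without replicate 4). The FG-repeat minus scaffold difference of medians stayed positive in the settings tried, at 0.0798 to 0.153 with a replicate left out and 0.0959 without POM121 and POM121C. Of 657 values of members and other named genes compared over the settings, 606 kept their direction and side of the threshold. Where a call was lost the cause was not tested. Expected counts cannot show how reads were divided between copies, and 4 pairs leave intervals of about the size of the members' changes.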

Other observations

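Of the nucleoporin genes outside the 31, NUP62CL, a gene related to the C-terminal part of NUP62 and named here after its values were seen, was called higher. It had 80.9, 132, 147 and 110 normalized counts in control replicates 1 to 4 and 202, 279, 286 and 319 in OGTi replicates. The groups did not overlap, and the log2 fold change was 1.22 ± 0.18 (DESeq2 q of 2.43e-10), larger in size than that of any of the 31 members. NUPL2, the cytoplasmic FG nucleoporin also named NUP42, was at 264 ± 37.1 in control and 266 ± 35.4 in OGTi cells (0.01, 95% interval -0.28 to 0.30).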
